A study of Homo sapiens with 6 samples.

Results

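The 8 genes described here, LGR5, SMOC2, ASCL2, OLFM4, LRIG1, CDCA7, MSI1 and HOPX, are markers of the stem cells at the base of the intestinal crypt, and they were chosen by gene symbol. All 8 were measured, among 14884 named genes on an array of 53616 features, and each was represented by 1 feature. Their levels were compared between spheroids of SW620, a colorectal cancer line from a lymph node metastasis, and spheroids of SW480, a colorectal cancer line from a primary tumour, with 3 arrays per line. Both lines were kept as spheres, without serum and with added growth factors, a way of enriching for tumour-initiating cells. The stated purpose was to compare that compartment, but no adherent culture or sorted fraction was analysed here. Each line is a single cell line, and the submitters call its 3 arrays technical replicates, so every p-value below measures only the spread between such arrays and not between separate cultures. In RNA from whole spheroids, fewer cells that express a gene and less RNA of it per cell cannot be told apart.

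The crypt stem cell niche runs on Wnt signals. LGR5 is a receptor for R-spondins, which raise Wnt signalling by removing the ubiquitin ligases RNF43 and ZNRF3 from the cell surface, and LGR5 and ASCL2 are themselves switched on by Wnt. LGR5, SMOC2, ASCL2 and OLFM4 mark the cycling stem cells at the crypt base, whereas HOPX and LRIG1 have been used in mouse to mark cells that divide less often or sit slightly higher.

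Promoter sequence from RefSeq (GRCh38.p14) was at hand for 5 of the 8 genes, and windows from 250 bases before to 50 bases after the annotated start are shown for a gene higher in SW620 (SMOC2), for both genes with a window that were lower in SW620 (LRIG1, first of its annotated starts, and CDCA7) and for a gene at the floor of the array in both lines (OLFM4). LGR5, ASCL2 and MSI1 are named only. Capitals mark CpG pairs, the sites of DNA methylation. The windows are chr6:168440934-168441233 on the plus strand for SMOC2, chr3:66501072-66501371 on the minus strand for LRIG1, chr2:173354622-173354921 on the plus strand for CDCA7 and chr13:53028563-53028862 on the plus strand for OLFM4.
SMOC2: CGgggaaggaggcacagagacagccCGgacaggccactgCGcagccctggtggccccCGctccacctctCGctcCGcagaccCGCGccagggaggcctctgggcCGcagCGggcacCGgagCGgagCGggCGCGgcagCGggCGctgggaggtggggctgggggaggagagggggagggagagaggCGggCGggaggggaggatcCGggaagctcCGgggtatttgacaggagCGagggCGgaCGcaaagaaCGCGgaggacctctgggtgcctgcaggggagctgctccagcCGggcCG
LRIG1: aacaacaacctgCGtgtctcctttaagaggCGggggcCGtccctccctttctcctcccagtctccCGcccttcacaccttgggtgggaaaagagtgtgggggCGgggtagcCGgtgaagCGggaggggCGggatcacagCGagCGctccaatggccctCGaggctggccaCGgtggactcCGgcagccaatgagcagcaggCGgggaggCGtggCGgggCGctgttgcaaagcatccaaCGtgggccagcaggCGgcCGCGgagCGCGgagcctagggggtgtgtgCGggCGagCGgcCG
CDCA7: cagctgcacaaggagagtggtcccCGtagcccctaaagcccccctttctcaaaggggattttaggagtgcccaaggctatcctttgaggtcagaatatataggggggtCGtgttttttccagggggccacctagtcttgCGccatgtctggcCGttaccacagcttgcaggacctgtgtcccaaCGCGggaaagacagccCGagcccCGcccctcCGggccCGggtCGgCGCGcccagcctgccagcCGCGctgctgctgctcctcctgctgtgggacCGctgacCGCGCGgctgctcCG
OLFM4: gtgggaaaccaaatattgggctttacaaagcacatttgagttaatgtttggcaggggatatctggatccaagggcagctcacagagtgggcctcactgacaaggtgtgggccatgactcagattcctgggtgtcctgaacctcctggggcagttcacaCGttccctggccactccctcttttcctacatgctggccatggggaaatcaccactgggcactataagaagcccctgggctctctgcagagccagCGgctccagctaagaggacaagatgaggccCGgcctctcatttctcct
The SMOC2 window held 28 CpG pairs, the LRIG1 window 27, the CDCA7 window 20 and the OLFM4 window 3, against a median of 14 over 35116 promoter windows of the same length. Windows at the other annotated starts of LRIG1 held 35, 29 and 10. The windows of HOPX, which was near the floor, held 11 and 15. A binding motif of TCF/LEF factors, the Wnt effectors, was searched on both strands as CTTTG followed by 2 bases that are each A or T. Of the windows printed above only that of OLFM4 held it, on the minus strand at base -227 from the start, and 13.8% of all windows hold one. The E-box CAGCTG, a motif read by basic helix-loop-helix factors such as ASCL2, was present in the CDCA7 window alone among those 4, at base -250, and in 17.9% of all windows. These matches describe letters in a window and not binding. Methylation was not measured.

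Across features, r was at least 0.9882 between arrays of 1 line and at most 0.9653 between arrays of different lines (features are not independent replicates), and no array stood apart from its line. Of 8 genes of epithelial and colon identity 7 were measured, with 3 higher and 1 lower in SW620. That is 57.1% at a limma adjusted p under 0.05, against 35.6% of all genes. The share over all genes includes dim ones, while median levels of this list were 8.11 in SW620 and 7.61 in SW480. EPCAM averaged 9.61 ± 0.0979 in SW620 and 9.71 ± 0.0796 in SW480 (SD, n = 3 each). On its brighter feature the keratin KRT18 averaged 11.67 ± 0.0699 in SW620 and 11.55 ± 0.0463 in SW480 (SD, n = 3 each). Its other feature was far dimmer, with means of 8.36 in SW620 and 8.19 in SW480. The homeobox gene CDX1 was below the median feature in both lines, at 3.80 in SW620 and 3.84 in SW480, and its relative CDX2 averaged 4.68 in SW620 and 6.22 in SW480, a 2.90-fold lower level. The structural genes VIL1, KRT19 and KRT8 rose by 0.62, 0.51 and 0.40. Of 14 markers of fibroblasts, leukocytes and endothelial cells 6 were measured, and 4 of them lay below the median feature in both lines. Their mean level was 4.42 to 4.43 on SW620 arrays and 3.82 to 3.93 on SW480 arrays. The matrix gene LUM averaged 7.95 in SW620 and 4.73 in SW480, and 0 of the other 5 passed limma's test, with 1 of them, DCN, at an unadjusted p under 0.05. Past the threshold were thus 16.7% of the 6, against 35.6% of all genes. The part of LUM in the results on the markers was not tested.

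Of the 8 markers, 2 rose in SW620, 3 fell and 3 did not pass the test (limma, adjusted p under 0.05 over all genes). The background was high, since 35.6% of all genes passed, 16.0% higher and 19.5% lower in SW620. At a difference of at least 2-fold only LGR5 and SMOC2 were left, a size reached by 6.07% of all genes, 2.32% higher and 3.76% lower. Small differences were also tested in limma against a minimum of 1.2-fold. Among the genes tried under other settings, calls lost there were those of ASCL2, LGR4, OLFM2, ZNRF3, ERBB3, MYC, KRT8, KRT19, CEACAM1, GUCA2A, TFF3, CHGA, CHGB, RAB3IP, TMEM19, WDR27 and OLA1 (adjusted p from 0.06035 to 1.0). The markers without a call, MSI1, OLFM4 and HOPX, did not pass there either. The median difference of the 8 was -0.11 on the log2 scale, and that of all genes 0.0132. The arrays of the lines did not overlap for 6 of the 8, as was the case for 45.7% of all genes.

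**Figure D1:**
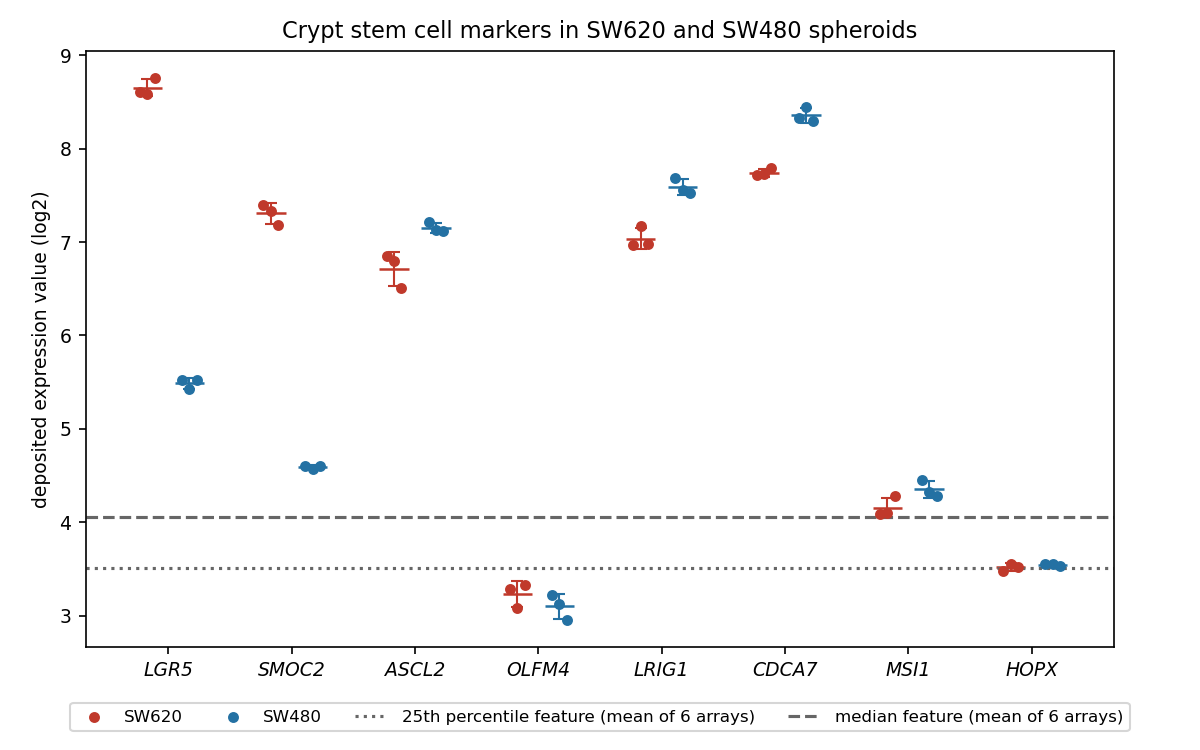
Deposited expression values (log2, vertical axis) of the 8 markers, with a point for each array, SW620 in red to the left and SW480 in blue to the right of each gene, bars for the mean and whiskers for 1 SD (n = 3 arrays each). LGR5 and SMOC2 stand apart by more than 2 log2 units, while OLFM4 lies below the dotted line of the 25th percentile feature in both lines and HOPX close to it.

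LGR5 gave the largest difference of the group. Its level was 8.61, 8.59 and 8.76 on the log2 scale in SW620 spheroids, against 5.52, 5.42 and 5.52 in SW480 spheroids. The lines were separated by a gap of 3.06 between the lowest SW620 array and the highest SW480 array, against ranges of 0.169 within SW620 and 0.101 within SW480. The difference was 3.16 (standard error 0.0855, 95% interval 2.98 to 3.35, limma adjusted p = 1.82e-11), or 8.95-fold, and 18 of the 14884 genes had a higher one. LGR5 was brighter than 95.1% to 95.7% of the features of each SW620 array and than 73.1% to 74.4% of those of each SW480 array, so it stood above the floor in both lines.

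SMOC2, a secreted calcium-binding matrix protein that belongs to the signature of Lgr5-positive stem cells in mouse, moved with LGR5. Its values were 7.40, 7.33 and 7.18 in SW620 spheroids, against 4.61, 4.57 and 4.60 in SW480 spheroids. All SW620 arrays were higher than all SW480 arrays, with a gap of 2.58. The difference was 2.71 on the log2 scale (standard error 0.0862, 95% interval 2.53 to 2.90, limma adjusted p = 7.206e-11), or 6.56-fold, the 40th highest of all genes. In SW480 SMOC2 was brighter than 62.2% to 63.2% of features, nearer the floor than LGR5, and RMA can understate the fold of such a gene.

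ASCL2, the transcription factor that maintains intestinal stem cells in mouse, did not follow LGR5. It measured 6.85, 6.79 and 6.51 in SW620 spheroids, against 7.21, 7.13 and 7.12 in SW480 spheroids. The arrays did not overlap, and SW620 replicate 3 was the lowest of the 6. The difference was -0.44 (standard error 0.0996, 95% interval -0.65 to -0.22, limma adjusted p = 0.003791), a 1.35-fold lower level. Against a minimum difference of 1.2-fold the call was lost (adjusted p = 0.2525). The SD between SW620 arrays, 0.182, was larger than that of 84.0% of genes.

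LRIG1, a membrane protein that restrains receptors of the ErbB family, was also lower. It measured 6.97, 7.17 and 6.98 in SW620 spheroids, against 7.69, 7.55 and 7.53 in SW480 spheroids. The lines were apart by 0.358 at the nearest arrays. The difference of -0.55 (standard error 0.0908, 95% interval -0.75 to -0.36, limma adjusted p = 0.0003236) corresponds to 1.47-fold.

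CDCA7, a MYC-responsive nuclear zinc-finger protein that works with the chromatin remodeller HELLS, had the largest fall of the group. Its values were 7.71, 7.72 and 7.79 in SW620 spheroids, against 8.33, 8.44 and 8.29 in SW480 spheroids. The SW620 arrays lay close together, with an SD of 0.0436, and all were below the SW480 arrays. The difference was -0.61 (standard error 0.0832, 95% interval -0.79 to -0.43, limma adjusted p = 6.696e-05), a 1.53-fold lower level. Among the genes called lower in SW620, 41.7% fell by more than CDCA7, 47.4% by more than LRIG1 and 63.4% by more than ASCL2. ASCL2, LRIG1 and CDCA7 were brighter than at least 82.7% of the features on every array, so none of these small differences arose near the floor.

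MSI1, an RNA-binding protein that represses translation of NUMB, was little above the median feature. It measured 4.09, 4.10 and 4.28 in SW620 spheroids, against 4.46, 4.33 and 4.28 in SW480 spheroids. The nearest arrays of the lines differed by 0.00223 only. The difference of -0.20 had a 95% interval of -0.40 to -0.00337 and an unadjusted p of 0.04674 in limma, and it did not pass after adjustment (adjusted p = 0.1101), though it passed without SW620 replicate 3 (-0.26, adjusted p = 0.04975). MSI1 exceeded 50.9% to 56.6% of features on SW620 arrays and 56.1% to 60.3% on SW480 arrays.

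OLFM4, a secreted glycoprotein abundant in human crypt stem cells, was at the floor in both lines. It measured 3.29, 3.08 and 3.33 in SW620 spheroids, against 3.22, 3.12 and 2.96 in SW480 spheroids, and the arrays overlapped. No more than 13.8% of features were dimmer on any SW620 array and no more than 11.0% on any SW480 array. The difference was 0.13 (95% interval -0.0847 to 0.35, limma adjusted p = 0.3521), and it was 0.209 without SW620 replicate 2 and 0.0599 without SW480 replicate 3. HOPX, a homeodomain protein that does not bind DNA by itself, measured 3.48, 3.56 and 3.53 in SW620 spheroids, against 3.56, 3.56 and 3.53 in SW480 spheroids. Its arrays overlapped too, with a difference of -0.0264 (95% interval -0.20 to 0.15, limma adjusted p = 0.8389), whose sign turned to 0.000604 when arrays were centred on the 75th percentile. HOPX exceeded at most 27.0% of features on SW620 arrays and 26.2% to 28.3% on SW480 arrays. At or near the floor the array cannot show differences in either gene, and these intervals describe the signal of the features rather than the transcripts.

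**Figure D2:**
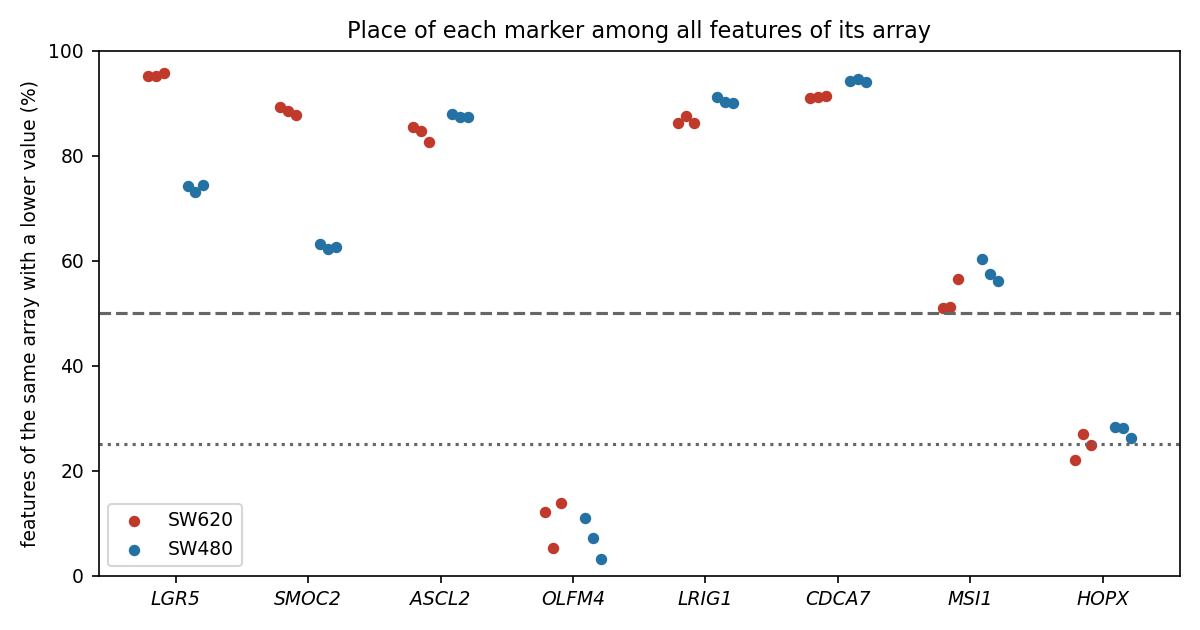
Share of all features of the same array with a lower value (%, vertical axis) for each marker, with a point for each array, SW620 in red to the left and SW480 in blue to the right. The dashed line is the median feature and the dotted line the 25th percentile feature; LGR5 lies above 95% of features in SW620, and OLFM4 never exceeds 13.8%.

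Set against the floor, 6 markers had a mean above the median feature in SW620 (4.064), and 6 in SW480 (4.055). They were the same genes, all but OLFM4 and HOPX. Above the 75th percentile feature were 5 markers in SW620, and 3 in SW480, since LGR5 and SMOC2 crossed it only in SW620. Each feature has its own probes, so these places say how far a gene stood from the floor and give no order of transcript amounts between genes. The spread between arrays was ordinary for most markers, with a median SD over all genes of 0.105 in SW620 and 0.0955 in SW480.

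Genes whose profiles across the 6 arrays were most like those of the 5 changed markers were found by the root mean square difference of values centred on each gene's mean. LGR5 was nearest to ERLN (0.112), GPR183 (0.113) and NRCAM (0.118). SMOC2 was nearest to HOMER2 (0.0481), CAPN6 (0.0485) and DST (0.0726). For ASCL2 they were RUNDC1 (0.0271), TMEM179B (0.0301) and ZNF169 (0.0408), for LRIG1 C3orf80 (0.0216), PBK (0.0368) and HACL1 (0.0394), and for CDCA7 CLOCK (0.0291), TSPAN7 (0.031) and PEA15 (0.031). With 2 lines, such likeness mostly restates a like difference between them.

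The closest relatives of the markers were measured for 12 of 14 genes, of which 2 rose, 4 fell and 6 did not pass. Of all genes 35.6% passed in either direction. The median difference of the list was -0.14, against 0.0132 over all genes. Median levels of this list were 3.85 in SW620 and 4.45 in SW480, and brightness was not matched. Both other receptors of the LGR family rose with LGR5. LGR6 measured 6.34, 6.18 and 6.59 in SW620 spheroids, against 4.96, 4.77 and 4.84 in SW480 spheroids, a difference of 1.51 (standard error 0.108, limma adjusted p = 1.733e-07) or 2.85-fold. LGR4 measured 5.85, 5.65 and 5.74 in SW620 spheroids, against 5.30, 5.25 and 5.24 in SW480 spheroids. Its difference of 0.49 passed the test (adjusted p = 0.0005078) but not against a minimum of 1.2-fold (adjusted p = 0.06035). The interval of LGR5, 2.98 to 3.35, lay above that of LGR6, 1.28 to 1.75, and that of LGR4, 0.30 to 0.67.

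MSI2, the broadly expressed relative of MSI1, fell to 8.08, 8.16 and 8.30 in SW620 spheroids, against 9.20, 9.37 and 9.21 in SW480 spheroids. This was 2.11-fold lower (-1.08, standard error 0.0915, limma adjusted p = 8.699e-07). OLFM1 was 2.84-fold lower (-1.51), with a SW620 mean of 3.70, below the median feature, against 5.21 in SW480. LRIG3 fell by 0.57, with both means, 3.47 in SW620 and 4.03 in SW480, below the median feature. OLFM2 fell by 0.30 (adjusted p = 0.03657), a call lost in several alternatives, among them those without SW620 replicate 1 (adjusted p = 0.1515) and without SW480 replicate 1 (0.1439). SMOC1 differed by -0.17 (adjusted p = 0.1712), CDCA7L by -0.16 (adjusted p = 0.1932) and LRIG2 by 0.0902 (adjusted p = 0.4876), so no call was made for these relatives of SMOC2, CDCA7 and LRIG1.

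**Figure D3:**
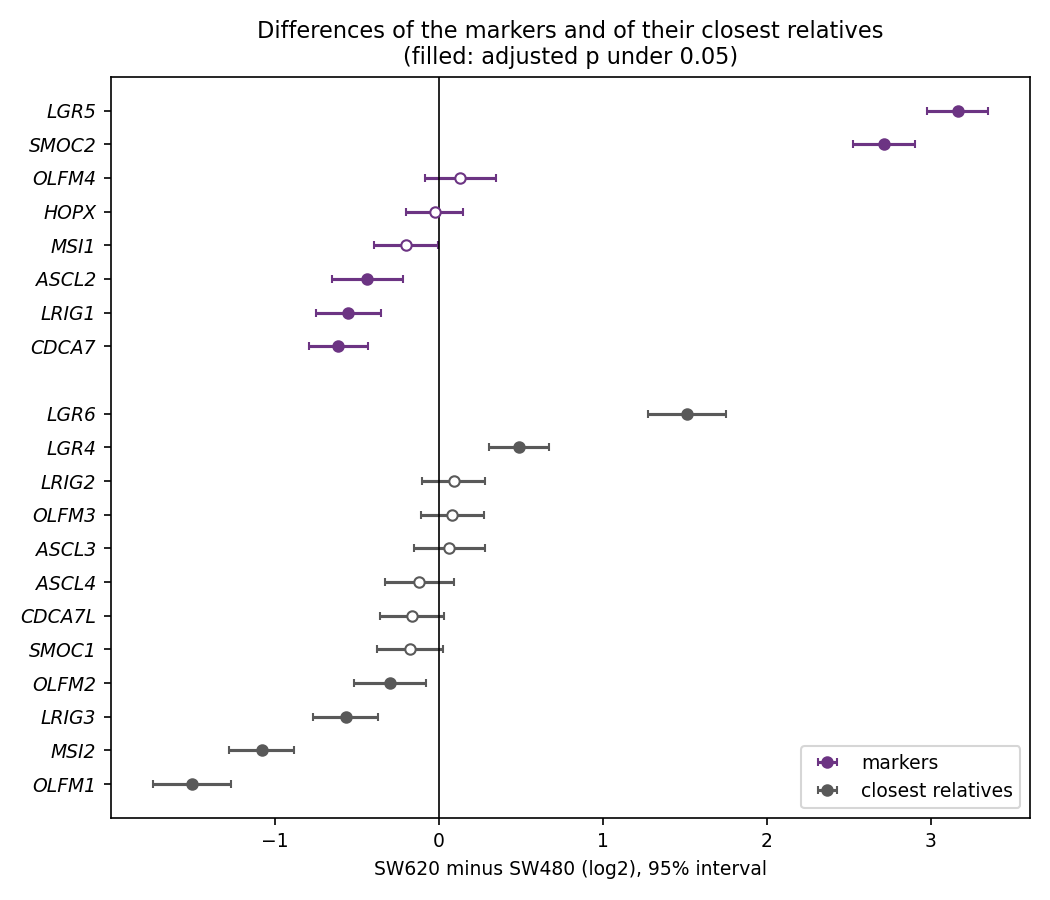
Differences between the lines (SW620 minus SW480, log2, horizontal axis) with 95% intervals from limma for the 8 markers, in purple, and 12 measured relatives, in grey. Filled points passed the test; the 3 LGR receptors lie to the right of 0 and MSI2 and OLFM1 to the left.

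The receptor complex in which LGR5 acts was measured in full, 20 of 20 genes, with 7 higher, 7 lower and 6 not passing. Past the threshold were 70.0%, against 35.6% of all genes, and the median was 0.0283. Median levels of this list, 5.21 in SW620 and 4.98 in SW480, were above the median feature, and brightness was not matched. The ligase RNF43, which removes Wnt receptors from the surface and is cleared when an R-spondin binds an LGR receptor, measured 8.22, 8.28 and 8.27 in SW620 spheroids, against 9.73, 9.86 and 9.65 in SW480 spheroids. That is 2.81-fold lower (-1.49, standard error 0.0859, limma adjusted p = 2.108e-08). Its relative ZNRF3 was higher by 0.35 (adjusted p = 0.01478), a call lost without SW620 replicate 1 (adjusted p = 0.06815) and without SW480 replicate 2 (0.05194). The Wnt coreceptor LRP6 rose 1.98-fold (0.98), and the Frizzled receptor FZD7 was 1.99-fold lower, with a SW620 mean of 3.33 below the 25th percentile feature. The other Frizzled genes did not share a direction and ran from -0.84 to 0.98, with calls on both sides.

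Direct partners and targets of the markers were measured for 11 of 16 genes, with 3 higher and 3 lower (median 0.0936). Past the threshold were 54.5%, against 35.6% of all genes. Median levels of this list, 6.74 in SW620 and 7.20 in SW480, were above the median feature, and brightness was not matched. EGFR, a receptor that LRIG1 restrains, measured 3.42, 3.57 and 3.67 in SW620 spheroids, against 6.98, 6.92 and 6.85 in SW480 spheroids. It was 10.3-fold lower (-3.36), at a SW620 mean of 3.55 near the 25th percentile feature, so that the fold rests on a level at the floor. MET, another receptor that LRIG1 can restrain, moved the other way, 3.15-fold higher (1.65), and ERBB3 was higher by 0.35. The ERBB3 call was lost without SW620 replicate 3 (adjusted p = 0.05033) and without SW480 replicate 3 (0.06626). NUMB, whose translation MSI1 represses, differed by -0.21 (adjusted p = 0.05987) and passed under cyclic loess (0.04393) and with dim genes left out at the median feature (0.03615). NOTCH1, the receptor that NUMB restrains, was 2.82-fold lower (-1.49). HDAC2, a deacetylase with which HOPX acts, was 1.56-fold higher on its brighter feature and higher by 0.45 on the other. MYC, which drives CDCA7, fell by 0.25 (adjusted p = 0.02865), a call lost when any array but SW620 replicate 1 was left out (adjusted p from 0.06868 to 0.07268) and when arrays were centred on the 75th percentile (0.05313).

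A wider list of crypt stem and progenitor genes was divided too. Of 29 genes 20 were measured, and 6 rose, 8 fell and 6 did not pass, 70.0% past the threshold against 35.6% of all genes, with a median of 0.00172. The share over all genes counts dim genes too. Median levels of this list, 6.84 in SW620 and 7.70 in SW480, were well above the median feature, so the 2 shares cover genes of unlike brightness. At least 2-fold higher were PROM1, which encodes CD133, and the guidance receptor EPHB3. PROM1 measured 6.02, 5.92 and 5.93 in SW620 spheroids, against 3.47, 3.62 and 3.65 in SW480 spheroids, and EPHB3 measured 5.40, 5.52 and 5.80 in SW620 spheroids, against 3.96, 4.04 and 4.001 in SW480 spheroids. At least 2-fold lower were RNF43, the cyclin CCND2, the hyaluronan receptor CD44 and the tuft cell kinase DCLK1. CCND2 measured 3.77, 3.998 and 3.92 in SW620 spheroids, against 8.04, 7.84 and 7.92 in SW480 spheroids. Its difference was -4.04 on this brighter feature and -1.37 on the other. CD44 fell by 2.62 and DCLK1 fell by 2.30 on the log2 scale. PROM1 (3.58) and EPHB3 (3.9997) in SW480, and CCND2 (3.90) and DCLK1 (3.13) in SW620, lay below the median feature, so these folds rest on one level near the floor.

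**Figure D4:**
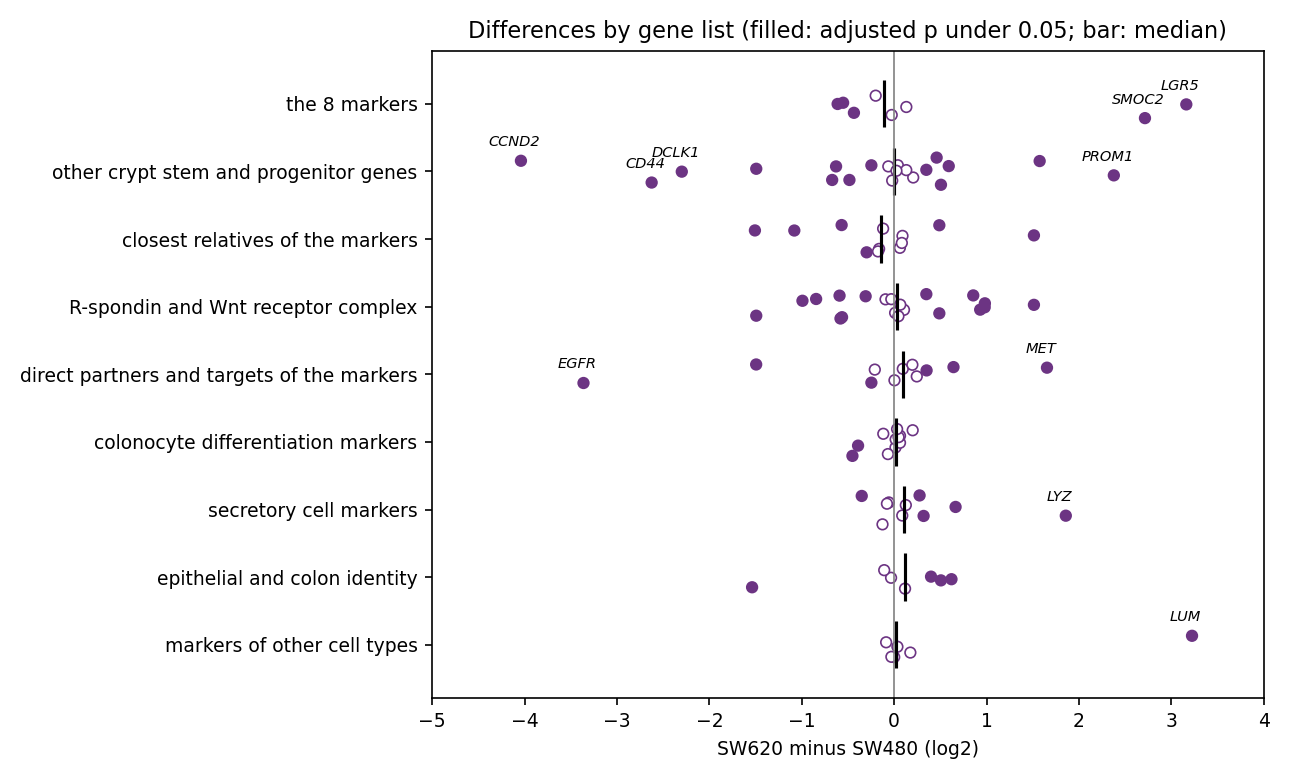
Differences between the lines (SW620 minus SW480, log2, horizontal axis) for the measured genes of each list, with a point for each gene, filled where the adjusted p was under 0.05, and a bar for the list's median. Points are spread vertically within a list for sight only; the medians lie near 0 while single genes such as LGR5, SMOC2, PROM1, CCND2 and EGFR lie far out.

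Markers of differentiated cells were mostly dim in both lines. Of 11 measured colonocyte markers 8 lay below the median feature in both lines. In limma 0 rose, 2 fell and 9 did not pass (median 0.0161), with 1 higher at an unadjusted p under 0.05. That is 18.2% past the threshold, against 35.6% of all genes. Those that fell were the adhesion molecule CEACAM1, which fell by 0.45, and the guanylin gene GUCA2A, which fell by 0.39 and whose arrays overlapped and whose call was lost when any array but SW620 replicate 2 or SW480 replicate 3 was left out (adjusted p from 0.05132 to 0.07204). Of 10 measured secretory markers 6 lay below the median feature in both lines, 4 rose and 1 fell (median 0.107). This count too stands beside the 35.6% of all genes that passed in either direction. LYZ, the lysozyme of Paneth cells, which neighbour the crypt stem cells, rose 3.62-fold, to a mean of 5.72 in SW620 against 3.87, below the median feature, in SW480, while its dimmer feature differed by 0.65 (log2). AGR2, a chaperone of mucin-making cells, was higher by 0.66, though at 3.91 in SW620 and 3.25 in SW480 it was below the median feature. TFF3, a goblet cell peptide, was higher by 0.28, a call lost without SW620 replicate 1, SW480 replicate 2 or SW480 replicate 3 (adjusted p from 0.05079 to 0.05822). The granins went apart, as CHGA fell by 0.35, with 3.65 in SW620 and 3.996 in SW480 both below the median feature, and CHGB was higher by 0.32, the CHGB call being lost when any array but SW620 replicate 3 or SW480 replicate 1 was left out (adjusted p from 0.05404 to 0.1016).

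The nearest measured protein-coding genes on the chromosome, up to 2 on each side of each marker in the order of the RefSeq annotation, were chosen after the values of the markers were known. Of 32 such neighbours 5 were higher and 6 lower in SW620, 34.4% past the threshold against 35.6% of all genes. Beside LGR5 on chromosome 12, TSPAN8 was higher by 0.72 (limma adjusted p = 7.294e-05) and TMEM19 by 0.40, while RAB3IP fell by 0.33, all far smaller than the 3.16 of LGR5. Beside SMOC2 on chromosome 6 no neighbour rose, and FRMD1 and THBS2, the nearest measured on either side, differed by 0.0458 and -0.12 and did not pass. WDR27, farther on, fell by 0.30 (limma adjusted p = 0.04861), a call lost when any array but SW480 replicate 3 was left out (adjusted p from 0.07856 to 0.2034) and under several other settings. Beside CDCA7 on chromosome 2, MAP3K20 fell by 1.41 (limma adjusted p = 7.519e-08), DLX2 fell by 0.89 and OLA1 fell by 0.33, and these 3 of its 4 neighbours fell in the direction of CDCA7 itself. Of the 4 neighbours of LRIG1 on chromosome 3, 0 passed limma's test and 1 had an unadjusted p under 0.05. TSPAN32, next to ASCL2 on chromosome 11, was higher by 0.85 while ASCL2 was lower. Copy number was not measured, and its part in these differences was not tested.

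**Figure D5:**
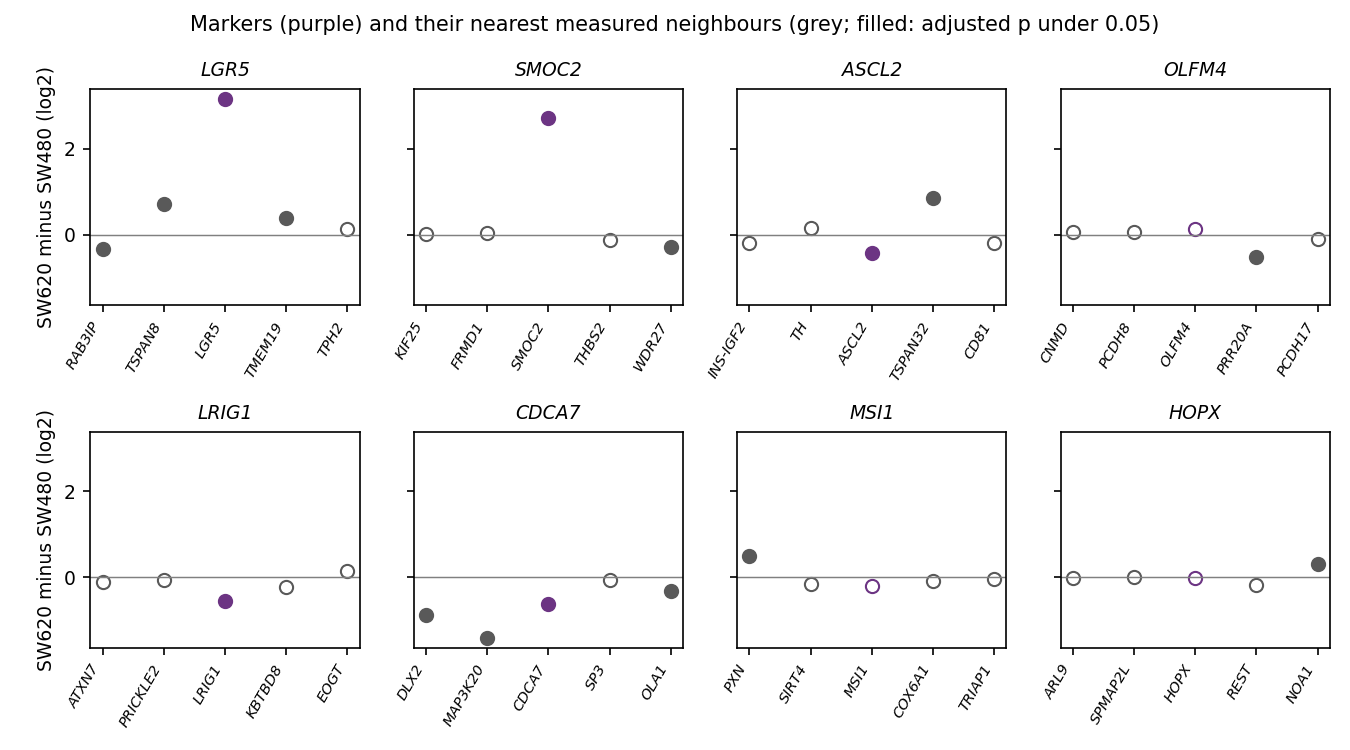
Differences between the lines (SW620 minus SW480, log2, vertical axis) for each marker, in purple, and its nearest measured neighbours in chromosomal order, in grey, with 1 panel per marker and filled points where the adjusted p was under 0.05. LGR5 (3.16) and SMOC2 (2.71) stand far above their neighbours, whereas most, but not all, of the neighbours of CDCA7 (-0.61) are called lower too.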

How the data were processed

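Total RNA from spheroids of SW620 and SW480 was labelled with biotin and hybridised to 6 whole-transcript arrays, 3 per line. The deposited log2 values are RMA output, and per the submitters' processing notes Partek was used; neither a version nor a setting is given in the sources used here. Values ran from 1.986 to 13.92 with no base stated. Base 2 was assumed, and each fold depends on it. No detection calls or raw intensities were used here.

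A platform annotation table gave 1 symbol to 16098 of 53616 features, several to 0 and none here to 37518. All 16098 matched the RefSeq gene table (GRCh38.p14), and 0 symbols changed. The feature with the highest mean stood for each of 14884 genes, 779 of which had more than 1 feature. No filter on dim features was applied.

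Differences are SW620 minus SW480, fitted on all 6 arrays without covariates by lmFit and eBayes of limma 3.58.1 (R 4.3.3; prior degrees of freedom 8.394). Two-sided p-values were adjusted over all genes by Benjamini-Hochberg and called below 0.05. Standard errors and 95% intervals are the moderated ones. The number of arrays limits the precision. Arrays were grouped by their titles. The fit was tested on simulated data, with independent noise set from the spread between these arrays. It recovered 26 of 50 differences of 0.5 on the log2 scale, 46 of 50 of 1, and 50 of 50 of 2 and of 3. Only these genes among 14884 were given a difference, a far smaller share than the 35.6% called in the data. The adjusted threshold was therefore stricter in the simulation, and these counts do not give the share missed in the data. How often differences near 0.5 were missed was not tested.

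The markers and lists were chosen with earlier results of these data known. Text names all 8 markers, up to 4 changed genes of each list with the largest difference, and for each changed marker the 3 genes with the most similar centred profile. LGR4, OLFM2, SMOC1, CDCA7L, LRIG2, ZNRF3, ERBB3, NUMB, MYC, EPHB3, TFF3, EPCAM, KRT18, CDX1, DCN and the chromosomal neighbours were named after their values were seen. Other settings tried were 4 further normalizations, 2 filters on dim genes, another variance model, 2 ways of treating several features of a gene, the replicate number as a block, a minimum difference of 1.2-fold, a threshold of 0.01, and leaving out each array. A floor from olfactory receptor genes had been planned and was not run, because only 1 such gene had a symbol.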

Additional observations from a re-analysis of the deposited data

How the results depend on the processing

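Of 141 repeats of the 8 marker differences under other settings, 138 kept the direction and the side of the threshold, LGR5 between 3.11 and 3.19, SMOC2 between 2.67 and 2.78, LRIG1 between -0.62 and -0.50 and CDCA7 between -0.65 and -0.57. The others were ASCL2 (-0.44) against a minimum of 1.2-fold (adjusted p = 0.2525), which asks more by construction, HOPX, which turned to 0.000604 when centred on the 75th percentile, and MSI1, which passed without SW620 replicate 3 (-0.26, adjusted p = 0.04975), the cause of both not being tested. Many of the repeats could not alter a difference. Each marker had 1 feature, so the treatment of several features left its difference as it was. The filters, variance model, replicate block, 1.2-fold minimum and 0.01 threshold did so too, and could change only the call. This holds also for other named genes with 1 feature. With each array left out in turn, MSI1 ran from -0.26 to -0.15 and OLFM4 from 0.0599 to 0.209. Of all genes 2465 passed against a minimum of 1.2-fold, 1005 higher and 1460 lower, in place of 5293, 2388 and 2905. A filter on dim genes left out OLFM4 at the 25th percentile feature, and OLFM4 and HOPX at the median feature. Of 905 repeats for 51 other named genes, 839 kept direction and call, 60 lost a call, 3 gained one and 3 turned, namely CDX1 without SW480 replicate 1 (0.0247) or replicate 3 (0.00327) and FRMD1 without SW480 replicate 2 (-0.00321). Neither was called, and with each array left out CDX1 ran from -0.13 to 0.0247 and FRMD1 from -0.00321 to 0.10. Arrays with the same replicate number did not deviate together (r from -0.0234 to -0.00889 across genes for the 3 numbers), so the numbers do not pair the arrays. With the replicate number as a block, 5 markers passed as before, LGR5 with an adjusted p of 7.869e-11, and 5215 genes in all. Signal near the floor limits OLFM4, HOPX and MSI1.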
